A study of Homo sapiens with 8 samples.

Results

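The comparison described here set the primary effusion lymphoma line BCBL1 against the line BC3 when both had been cultured with the solvent DMSO alone. Its members are the 4 DMSO arrays, chosen by their labels, of the 8 arrays in the series. BC3 with DMSO had 2 arrays and BCBL1 with DMSO had 2. The other 4 arrays, 2 per line, came from cells given 5 µM lenalidomide and served for the spread between arrays and for a repeat of the same comparison. All cultures had the same medium apart from the added agent, and all DMSO groups shared the solvent. Arrays of a group are technical replicates by the series text, so that p-values measure the spread between arrays and not between cultures. Each line is a single established culture, and a difference between the lines describes these lines and no wider class of tumours.

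Primary effusion lymphoma is an aggressive lymphoma that grows in body cavities and carries Kaposi sarcoma herpesvirus, also called human herpesvirus 8. Its cells derive from late B cells: they have usually lost surface B-cell antigens and carry markers of plasmablasts, such as the transcription factors IRF4 and PRDM1 and the surface proteoglycan SDC1. BC3 and BCBL1 are lines of this disease that hold the Kaposi sarcoma herpesvirus genome but not Epstein-Barr virus. Viral transcripts were not analysed here.

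Each array gave a fluorescence intensity per probe, which was corrected for background, quantile-normalized and taken to log2. On the DMSO arrays the median probe intensity lay between 140 and 153, with 48.2% to 49.1% of probes above background. Across the 12719 genes tested, the arrays of a line correlated with r of 0.995 in BC3 and 0.994 in BCBL1, and the arrays of different lines with r of 0.928 to 0.929. These correlations run over genes, which are not independent. A gene is called here where its adjusted p by limma was under 0.05 and the lines differed at least 2-fold. Every log2 difference below is BCBL1 minus BC3 on the normalized scale, with ± for its standard error (n = 2 arrays a line), and array values are log2 normalized intensities.

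The lines differed in many genes and by large factors. In bulk RNA such as this, fewer cells of a kind and less RNA per cell cannot be told apart. limma called 1268 of the 12719 genes, or 9.97%. Of these, 571 were higher in BCBL1, or 4.49% of the genes tested, and 697 were lower, or 5.48%. The adjusted p alone, with no fold threshold, was passed by 5220 genes, or 41.0%. The genes lower in BCBL1 reached further: 100 of them differed at least 8-fold and 15 at least 32-fold, against 40 and 1 among those higher. The median log2 difference over all tested genes was 0.0060 on these quantile-normalized arrays.

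**Figure D1:**
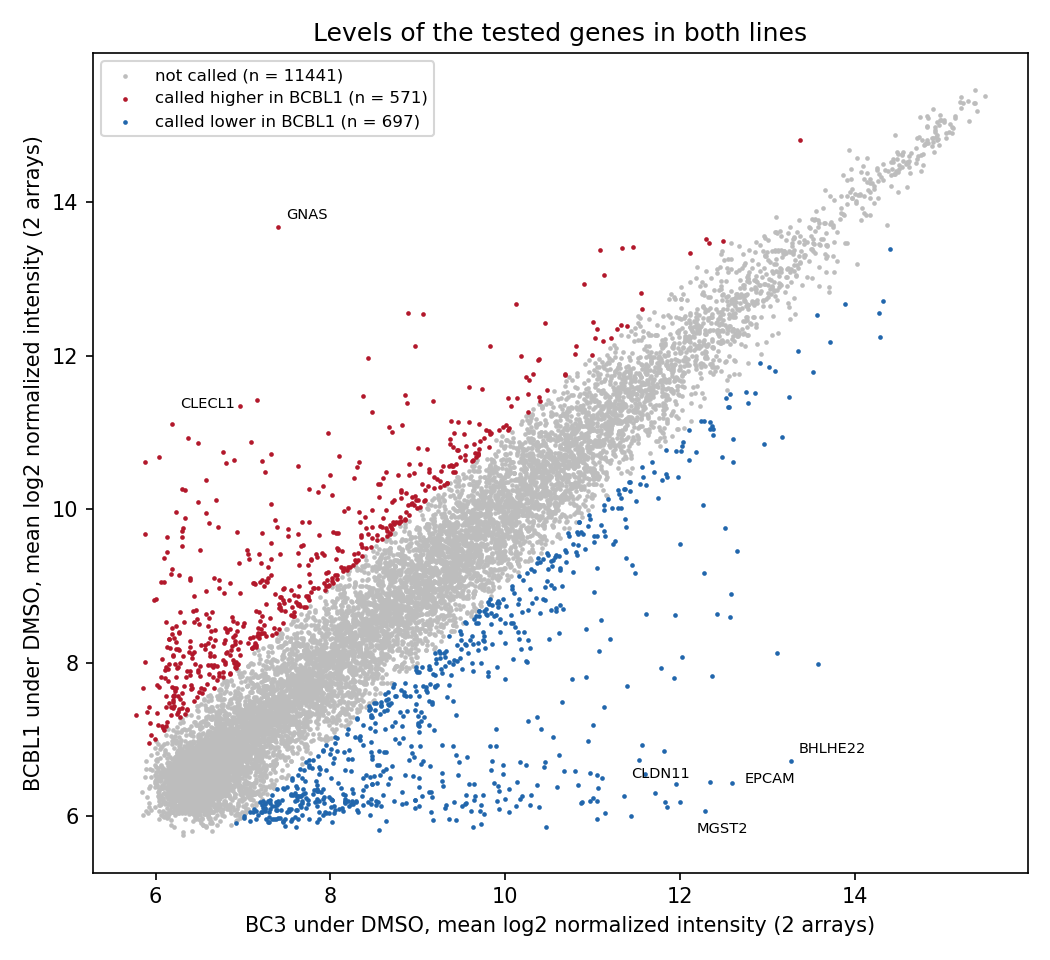
Mean log2 normalized intensity of each tested gene on the 2 BC3 arrays (horizontal axis) and the 2 BCBL1 arrays (vertical axis) under DMSO, with called genes in colour and Y-linked genes left out. Most genes lie along the diagonal, and 571 genes stand above it and 697 below it, with GNAS and BHLHE22 farthest from it.

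Among genes lower in BCBL1, many of the largest differences were in genes that BC3 expressed at a high level and BCBL1 at or near background. BHLHE22, which encodes a helix-loop-helix repressor known from neuronal development, read 13.28 and 13.24 on the BC3 arrays and 6.77 and 6.67 on the BCBL1 arrays. Both BC3 arrays were far above both BCBL1 arrays, a 93.3-fold difference (log2 difference of -6.54 ± 0.13, limma adjusted p = 2.88e-12). EPCAM, the epithelial adhesion molecule, read 12.55 and 12.64 in BC3 and 6.57 and 6.28 in BCBL1, a 71.8-fold difference (-6.17 ± 0.14, limma adjusted p = 4.89e-12). Its other kept probes were lower in BCBL1 too, by -2.46 and -5.59. CLDN11, a claudin of tight junctions, read 12.42 and 12.26 in BC3 against 6.50 and 6.38 in BCBL1. For EPCAM and CLDN11 1 of the 2 BCBL1 arrays was above background, so that low expression in BCBL1 and none could not be separated.

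Where neither BCBL1 array was above background, the difference is a lower bound. MGST2, a microsomal glutathione transferase, read 12.15 and 12.41 in BC3 against 6.07 and 6.08 in BCBL1 and was at least 58.2-fold higher in BC3 (limma adjusted p = 2.88e-12). The same held for PLBD1, a lysosomal phospholipase B-like protein, at least 47.6-fold higher in BC3. IL13RA2, the decoy receptor of interleukin 13, was at least 43.2-fold higher in BC3, with 11.68 and 12.03 against 6.14 and 6.09. FHL2, a scaffold protein with LIM domains, was at least 42.6-fold higher and its other kept probe was called too, at -4.36. These genes were picked by the size of the difference, so the separation of their arrays follows from that choice.

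Several further genes of this group are known from glutathione chemistry, synapses and imprinting. GSTP1, the glutathione transferase that conjugates electrophiles, read 13.09 and 13.13 in BC3 and 8.23 and 8.03 in BCBL1, a 31.5-fold difference (-4.98 ± 0.12, limma adjusted p = 6.62e-12), and stayed above background in both lines. UNC13C, a synaptic vesicle priming protein, differed by -4.97 ± 0.13, and its other kept probe by -2.78. NDN, the imprinted gene of necdin, read 11.56 and 11.50 against 6.61 and 6.85 (-4.80 ± 0.12). BASP1, a membrane-bound protein abundant in axon ends, read 11.46 and 11.72 against 6.73 and 6.38 (-5.03 ± 0.15). ITM2A, COX7B2 and COBL also stood among the 25 largest differences in this direction, between -5.53 and -4.68, although the other kept probe of ITM2A differed by only -0.68. For BASP1, ITM2A, COX7B2 and COBL 1 of the 2 BCBL1 arrays was above background, so their differences are not exact. KBTBD11 was at least 32.5-fold and DCAF4L2 at least 30.7-fold higher in BC3.

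In the other direction 1 gene stood apart. GNAS, the alpha subunit of the stimulatory G protein, read 7.35 and 7.44 in BC3 and 13.65 and 13.70 in BCBL1, a 77.5-fold difference (6.28 ± 0.13, limma adjusted p = 3.39e-12). The other kept probe of GNAS differed by -0.02 (limma adjusted p = 0.94), so the difference belonged to what 1 of its probes measures. GNAS is an imprinted locus with several first exons. Which of its transcripts each probe reads was not analysed here.

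Some genes higher in BCBL1 were at background in BC3. CLECL1, a C-type lectin-like protein, read 6.05 and 6.33 in BC3 and 11.10 and 11.12 in BCBL1, and was at least 26.0-fold higher in BCBL1 (limma adjusted p = 1.95e-10). FZD2, a receptor for Wnt ligands, read 6.07 and 6.01 against 10.83 and 10.54 and was at least 19.4-fold higher. PNMA5, of the paraneoplastic antigen family, was at least 18.4-fold higher, and SLC24A3, a sodium and calcium exchanger, at least 14.5-fold. LAMC1, the gamma chain of several laminins, was at least 11.1-fold higher. All of them were above background on both BCBL1 arrays and on neither BC3 array.

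Other genes higher in BCBL1 were measured in both lines. SLFN11, a protein that blocks stressed replication forks, read 6.53 and 6.45 in BC3 and 10.79 and 10.95 in BCBL1 (4.38 ± 0.12, limma adjusted p = 1.79e-11), and its other kept probe differed by 3.16. CDCA7, a partner of the chromatin remodeller HELLS, read 6.83 and 7.10 against 11.31 and 11.38 (4.38 ± 0.13), while its other kept probe differed by only 0.55. RRAGD, a Rag GTPase that recruits mTORC1 to lysosomes, read 7.10 and 7.22 against 11.47 and 11.37 (4.26 ± 0.14). FMN2, an actin nucleator, differed by 3.97 ± 0.11, LMO3, a LIM-only transcription cofactor, by 3.79 ± 0.12, and KCNH2, a potassium channel, by 3.74 ± 0.13. LMO3 and KCNH2 had other kept probes with smaller differences in the same direction, from 0.83 to 1.85.

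**Figure D2:**
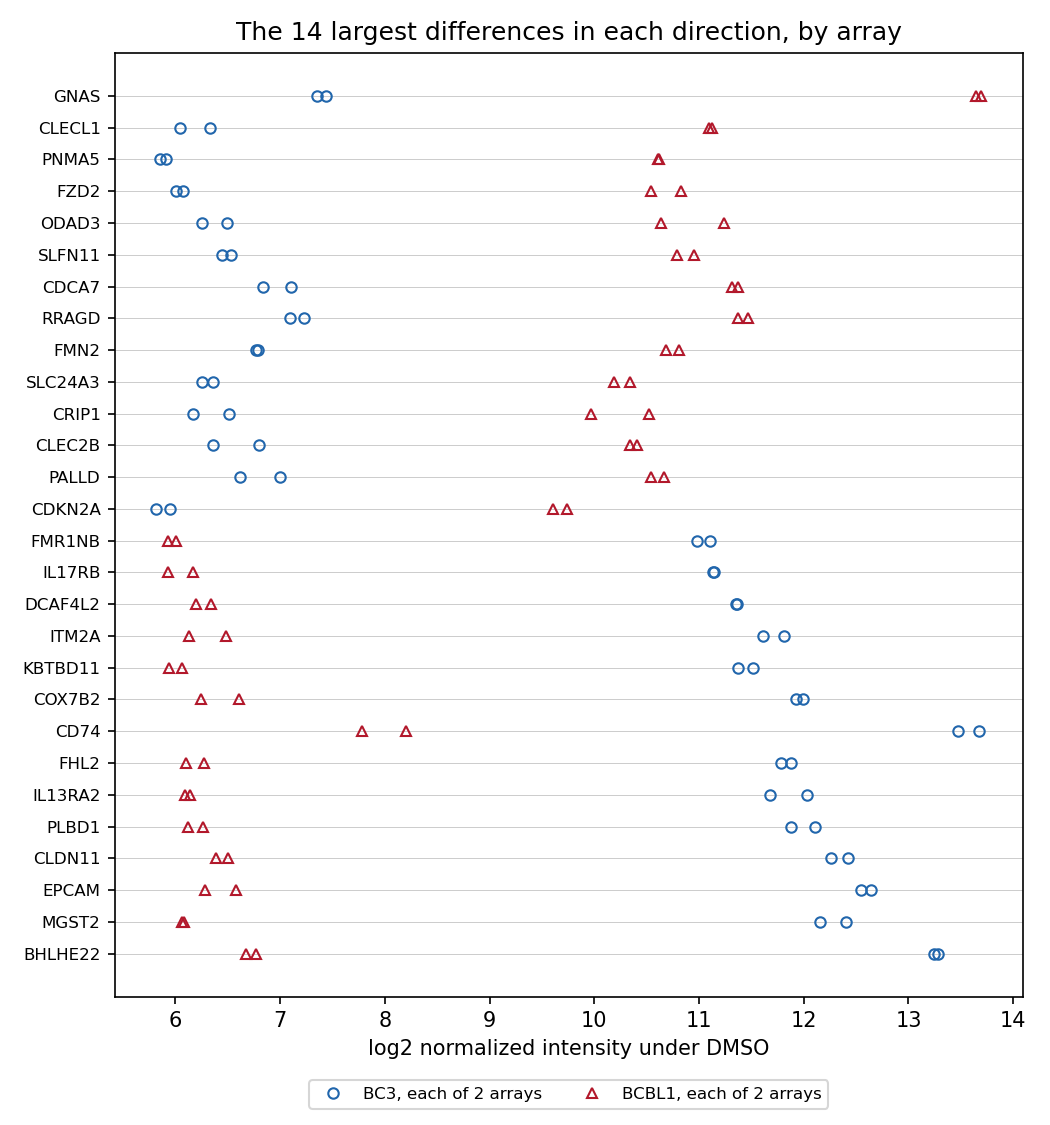
Log2 normalized intensity on each of the 4 DMSO arrays for the named genes with the 14 largest differences in each direction; circles are the BC3 arrays and triangles the BCBL1 arrays. The genes were picked by the size of the difference, so the distance between the lines follows from that choice. GNAS, for example, read 7.35 and 7.44 against 13.65 and 13.70.

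The label of both lines was compared with the markers of their disease. IRF4, the plasmablast factor on which these cells depend, read 11.79 and 11.27 in BC3 and 11.66 and 11.90 in BCBL1. The arrays of the lines overlapped (0.25 ± 0.16, limma adjusted p = 0.232), and the 95% interval of the difference ran from -0.09 to 0.59. PRDM1, the repressor that ends the B-cell programme, read 11.53 and 11.49 against 11.22 and 11.44, with an interval from -0.57 to 0.21. The B-cell markers MS4A1 and PAX5 were not above background. TNFRSF8, a listed marker of plasma cells and immunoblasts, was not above background either. IRF4, PRDM1, MS4A1 and PAX5 did not go against the label of either line, whereas the missing TNFRSF8 signal gave no support to it.

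Markers of plasma cells and immunoblasts split by direction. Of 23 tested, 6 were higher and 6 lower in BCBL1 (26.1% each), against 4.49% and 5.48% of all genes tested. Their median log2 difference was -0.18. MUC1, a membrane mucin, read 7.37 and 7.07 in BC3 and 10.56 and 10.69 in BCBL1 (3.41 ± 0.14, limma adjusted p = 5.49e-10), and its other probes differed by 0.61 and 2.54. CAV1, the coat protein of caveolae, read 10.15 and 10.09 against 12.71 and 12.63 (2.55 ± 0.12). POU2AF1, a coactivator of immunoglobulin transcription, was at least 3.77-fold higher in BCBL1. SDC1, the syndecan used to identify plasma cells, differed by 1.68 ± 0.13 on its brightest probe and by 0.08 on its other probe, and its call was lost in the mean of its probes.

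Among the markers lower in BCBL1 were genes of antibody secretion. JCHAIN, the joining chain of IgM and IgA, read 8.71 and 9.02 in BC3 and 6.11 and 6.24 in BCBL1 and was at least 5.45-fold higher in BC3 (limma adjusted p = 3.00e-09). SEC11C, a subunit of the signal peptidase, differed by -2.22 ± 0.13. TNFRSF17, the BCMA receptor of plasma cells, read 12.50 and 12.70 against 10.68 and 10.56 (-1.98 ± 0.12), and the ectoenzyme CD38 read 10.75 and 10.91 against 9.80 and 9.28 (-1.29 ± 0.16). XBP1, the factor of the secretory programme, was high in both lines and passed the adjusted p without reaching 2-fold (-0.61 ± 0.12, limma adjusted p = 0.00137). Of the 20 immunoglobulin genes listed 2 were tested, since 16 had no probe analysed here.

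Of 35 B-cell identity genes, 14 were tested and 19 were not above background in either line. Within the 14, 4 were lower (28.6%) and 1 was higher (7.14%), against 5.48% and 4.49% of all genes tested. Their median was -0.11, or -0.08 with genes at background in a line set at their bound. BLK, a SRC-family kinase of the B-cell receptor pathway, read 9.72 and 9.73 in BC3 and 5.89 and 5.91 in BCBL1, at least 9.87-fold higher in BC3. RASGRP3, an exchange factor for RAS, differed by -2.71 ± 0.12 and the kinase SYK by -1.55 ± 0.13. CD37, a tetraspanin of mature B cells, differed by -1.15 ± 0.12.

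The drug's targets were compared in the untreated lines. CRBN, the substrate receptor that lenalidomide binds, read 10.26 and 10.40 in BC3 and 10.07 and 9.95 in BCBL1, a difference of -0.32 ± 0.12 (limma adjusted p = 0.0487) that was under 2-fold. Its other kept probe differed by -0.17 and did not pass the adjusted p (limma adjusted p = 0.43). IKZF1, a zinc-finger factor that the drug directs to degradation, read 10.21 and 10.17 against 8.78 and 8.55 and was called lower (-1.52 ± 0.14, limma adjusted p = 1.55e-06). IKZF3, its paralogue, read 8.15 and 8.54 against 7.49 and 7.57 (-0.81 ± 0.17), under 2-fold on its brightest probe, while its other probe differed by -1.29. Of 13 tested genes of the cereblon ligase and its substrates, 1 was higher and 1 lower. That is 7.69% each, near the shares over all genes tested, 4.49% and 5.48%.

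Genes of antigen presentation on MHC class II had the largest share lower in BCBL1 of the lists with at least 10 tested members. Of 20 tested, 10 were lower in BCBL1 (50%) and 1 was higher (5%), against 5.48% and 4.49% of all genes tested. Their median was -0.999, or -0.873 with bounds. CD74, the invariant chain that escorts class II molecules, read 13.67 and 13.47 in BC3 and 8.20 and 7.78 in BCBL1, a 47.9-fold difference (-5.58 ± 0.17, limma adjusted p = 4.04e-11). Its other kept probes differed by -4.64 and -5.53. HLA-DRA, the invariant alpha chain of HLA-DR, read 12.51 and 12.65 against 8.95 and 8.84 (-3.69 ± 0.12), and its other probe differed by -3.23. Both lines were above background for both genes.

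The DRB genes of class II are near-identical and differ between haplotypes, so that probes named for them may read a relative, and their values are uncertain. HLA-DRB4 differed by -2.97 ± 0.14 and HLA-DRB6, a pseudogene, by -3.07 ± 0.16, but each had another kept probe near 0, at 0.06 and -0.10. HLA-DRB5 was the member called higher; it was not above background in BC3, and its bound of at least 1.92-fold is under 2-fold. CIITA, the transactivator of class II genes, read 6.69 and 6.87 in BC3 and 6.64 and 6.21 in BCBL1 and was not called (-0.35 ± 0.16, limma adjusted p = 0.0919). It was above background on both BC3 arrays and on 1 of the 2 BCBL1 arrays.

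MHC class I genes and those that load peptide on them were also mostly lower where they were called. Of 22 tested, 9 were lower (40.9%) and 1 higher (4.55%), against 5.48% and 4.49% of all genes tested, with a median of -0.77. TAPBP, the tapasin that bridges the peptide transporter to class I molecules, read 11.23 and 11.16 in BC3 and 8.27 and 8.36 in BCBL1 (-2.88 ± 0.11, limma adjusted p = 3.66e-10), although its other probes differed by -0.50 and -1.57. PSMB9, a subunit of the immunoproteasome, differed by -1.90 ± 0.15, and by -0.78 on its other probe, which was not called. HLA-G differed by -1.96 ± 0.12 and HLA-F by -1.72 ± 0.13. TAP2, a chain of the peptide transporter, was called higher at 1.01 ± 0.12, but its other kept probe differed by -0.98. Its call was lost without BC3 array a (0.98), without BCBL1 array b (0.94) and in the mean of its probes (0.01). Class I genes are close in sequence, so that HLA probes may share signal.

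Interferon-stimulated genes are switched on when the factor ISGF3, of which IRF9 is a part, binds the interferon-stimulated response element. Of 45 tested, 14 were lower in BCBL1, or 31.1%, against 5.48% of all genes tested. None was higher by limma's call. A higher value at an unadjusted p under 0.05 was found for 4, of which 3 passed the adjusted p without reaching 2-fold. The median of the list was -0.33, or -0.30 with bounds. IFI27, a mitochondrial protein strongly induced by type I interferon, read 10.95 and 11.14 in BC3 and 6.12 and 6.28 in BCBL1, at least 24.7-fold higher in BC3 (limma adjusted p = 4.04e-11). MX1, an antiviral GTPase, read 10.98 and 11.03 against 6.32 and 6.15, at least 24.0-fold higher in BC3. EPSTI1 read 11.40 and 11.37 against 7.79 and 7.62 (-3.68 ± 0.14), and IFITM1, which blocks viral entry, 10.54 and 10.76 against 7.67 and 7.31 (-3.16 ± 0.14).

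The regulators of this response differed as well. Of 12 tested interferon regulatory factors and their BATF partners, 3 were lower in BCBL1 (25%, against 5.48% of all genes). By limma's call none was higher, while 1 higher value passed the adjusted p without reaching 2-fold. IRF9, the DNA-binding part of ISGF3, read 11.06 and 10.78 in BC3 and 8.52 and 8.36 in BCBL1 (-2.48 ± 0.14, limma adjusted p = 1.15e-08). IRF7, the factor that amplifies type I interferon, read 8.80 and 8.91 against 6.66 and 6.42 (-2.32 ± 0.15), and its other probe differed by -2.01. The brightest IRF7 probe was above background on 1 of the 2 BCBL1 arrays. IRF1 differed by -1.18 ± 0.12.

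Promoters of this list are printed because its members differed so unevenly between the lines. They run from 250 bases before to 50 after the gene's start in RefSeq GRCh38.p14, each read 5′ to 3′ on the gene's strand. The motif searched was GAAANNGAAA, the core of the interferon-stimulated response element, on both strands, and its matches are in capitals. IFI27 lies at chr14:94110486-94110785 (plus strand), MX1 at chr21:41420308-41420607 (plus), EPSTI1 at chr13:42992192-42992491 (minus) and OAS3 at chr12:112938224-112938523 (plus). The first 3 are the called members with a match and the largest differences. OAS3, an oligoadenylate synthetase chosen after its values were seen, has the smallest difference of the members with a match, at 0.02 (95% interval from -0.32 to 0.35).
IFI27: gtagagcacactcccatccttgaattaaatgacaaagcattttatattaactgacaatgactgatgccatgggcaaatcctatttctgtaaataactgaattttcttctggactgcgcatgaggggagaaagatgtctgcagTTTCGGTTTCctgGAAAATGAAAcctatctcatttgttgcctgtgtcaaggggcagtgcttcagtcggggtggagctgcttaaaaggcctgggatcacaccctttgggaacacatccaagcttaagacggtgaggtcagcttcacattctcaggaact
MX1: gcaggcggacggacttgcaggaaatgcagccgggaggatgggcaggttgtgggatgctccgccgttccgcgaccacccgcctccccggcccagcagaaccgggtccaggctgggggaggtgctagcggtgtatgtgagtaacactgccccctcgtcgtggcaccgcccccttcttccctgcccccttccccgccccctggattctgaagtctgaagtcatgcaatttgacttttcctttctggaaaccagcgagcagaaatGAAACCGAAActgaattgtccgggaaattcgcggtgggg
EPSTI1: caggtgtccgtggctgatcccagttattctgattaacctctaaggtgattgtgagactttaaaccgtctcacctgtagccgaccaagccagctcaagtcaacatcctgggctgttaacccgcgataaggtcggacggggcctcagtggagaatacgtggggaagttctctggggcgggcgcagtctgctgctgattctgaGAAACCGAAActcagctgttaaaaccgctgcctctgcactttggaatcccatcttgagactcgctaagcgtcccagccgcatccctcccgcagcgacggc
OAS3: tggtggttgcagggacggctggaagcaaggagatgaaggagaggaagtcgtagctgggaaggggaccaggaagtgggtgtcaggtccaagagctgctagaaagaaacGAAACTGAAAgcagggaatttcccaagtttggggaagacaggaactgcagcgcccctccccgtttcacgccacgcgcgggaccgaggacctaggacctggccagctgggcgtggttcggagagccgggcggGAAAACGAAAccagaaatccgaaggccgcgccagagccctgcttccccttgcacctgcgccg

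IFI27 held 2 matches, on opposite strands and not overlapping, at 108 and 95 bases before the start. OAS3 held 2 matches as well, 143 and 12 bases before the start, MX1 held 1 that begins 11 bases after it, and EPSTI1 held 1 at 50 bases before it. Among all 27305 promoters given, 3.65% held a match, and 303 of the 10104 tested genes with a promoter did. In the interferon-stimulated list 25 of 36 promoters held one, or 69.4%. They were 9 of the 11 with a promoter that were called lower and 16 of the 25 that were not called. A match was thus found both in MX1 and IFI27, at least 24.0-fold higher in BC3, and in OAS3, and is a description of the sequence only.

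NF-κB is a family of factors that many lymphomas keep active, and its targets include its own inhibitors. Of 24 tested subunits and targets, 10 were lower in BCBL1 (41.7%, against 5.48% of all genes) and none was higher by limma's call. A higher value passed the adjusted p without reaching 2-fold in 1 of the 24. The median was -0.66. NFKBIA, the inhibitor IκBα, read 12.56 and 12.46 in BC3 and 9.88 and 9.64 in BCBL1 (-2.75 ± 0.13, limma adjusted p = 1.44e-09). TNFAIP3, the A20 enzyme that damps the pathway, read 9.05 and 8.80 against 6.91 and 6.93, a 4.01-fold difference. LTB, the membrane anchor of lymphotoxin, differed by -2.36 ± 0.17, with 1 of the 2 BCBL1 arrays above background. ICAM1, an adhesion ligand, differed by -1.07 ± 0.13. The call of ICAM1 was lost without BC3 array a (-0.99) and without BCBL1 array b (-0.92). With arrays averaged per group, a fit that compares the lines over both treatments, ICAM1 differed by -0.67. Under lenalidomide alone its line difference was -0.26 ± 0.13.

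Chemokines were lower in BCBL1 wherever they were called. Of 21 tested chemokines and receptors 6 were lower (28.6%, against 5.48% of all genes) and none higher by limma's call. Higher values passed the adjusted p without reaching 2-fold in 2 of the 21. The list median was -0.24, or -0.12 with bounds. CCL3, a chemokine that draws monocytes and T cells, read 9.24 and 8.88 in BC3 and 6.67 and 6.78 in BCBL1 (-2.33 ± 0.18). CCL3L3 and CCL3L1, near-identical copies whose probes may not tell them apart, differed by -2.49 ± 0.11 and -1.69 ± 0.13. CCR2, a receptor for monocyte chemokines, differed by -1.93 ± 0.14 on its brightest probe. Of its 5 other kept probes, 2 were called too (-1.65 and -1.81) and 3 were not (-0.47, -0.85 and -0.45).

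Interleukins, growth factors and their receptors gave 2 higher (6.9%) and 5 lower (17.2%) of 29 tested, against 4.49% and 5.48% of all genes. IL6, an autocrine growth factor of these cells, read 8.40 and 8.27 in BC3 and 7.19 and 6.92 in BCBL1 (-1.28 ± 0.13, limma adjusted p = 3.33e-06), a call that was lost without background correction (-0.98). Its receptor chain IL6R read 6.98 and 6.94 against 7.84 and 7.79, which passed the adjusted p but not 2-fold (0.86 ± 0.13). IL10, another autocrine factor, read 12.03 and 11.81 against 12.02 and 12.18, with a 95% interval from -0.11 to 0.47. IL13RA1, the signalling receptor of interleukin 13, was higher in BCBL1 (1.82 ± 0.13), opposite to the decoy receptor IL13RA2. VEGFA was near background in both lines (0.02 ± 0.17, limma adjusted p = 0.946).

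The retinoblastoma pathway gates entry into S phase, and 3 of its genes were higher in BCBL1. CDKN2A, which encodes the CDK inhibitor p16, read 5.95 and 5.82 in BC3 and 9.74 and 9.61 in BCBL1, at least 9.61-fold higher in BCBL1 (limma adjusted p = 7.66e-11). Its other kept probe differed by 2.05. RB1, the retinoblastoma protein that p16 keeps active, read 6.25 and 6.13 against 9.35 and 9.08, at least 7.01-fold higher in BCBL1. CDK6, the kinase that p16 inhibits, read 6.55 and 6.42 against 10.15 and 10.05 (3.62 ± 0.15, limma adjusted p = 4.41e-10). These were the 3 called of 10 tested (30%, against 4.49% of all genes), with a list median of 0.57. By limma's call none was lower, while 1 lower value passed the adjusted p without reaching 2-fold. CCND2, the D-type cyclin of B cells, was high in both lines, at 12.91 and 13.03 against 13.33 and 13.28, and missed the adjusted p (0.33 ± 0.13, limma adjusted p = 0.0513). Its other probe passed it without reaching 2-fold (0.40, limma adjusted p = 0.027).

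The transcription factor MYC drives growth genes. MYC read 12.07 and 11.84 in BC3 and 11.13 and 11.30 in BCBL1 (-0.73 ± 0.13, limma adjusted p = 4.73e-04), under 2-fold. Of 10 tested members of the MYC network 2 were lower (20%), among them MXD4, a MAX partner that opposes MYC (-1.64 ± 0.13). By limma's call none of the network was higher, with 1 higher at an unadjusted p under 0.05. Of 33 tested genes known to be induced by MYC 2 were higher (6.06%, near the 4.49% of all genes) and none lower by limma's call. Lower values in 4 had an unadjusted p under 0.05, and 2 of the 4 passed the adjusted p without reaching 2-fold. DNA replication and mitosis gave 1 higher and 1 lower of 37, with a median of 0.01. That is 2.7% each, under the shares over all genes tested, 4.49% and 5.48%.

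Among the BCL2 family, which sets the threshold for mitochondrial cell death, 4 of 14 tested genes were lower in BCBL1 (28.6%, against 5.48% of all genes). By limma's call none was higher, while 2 higher values passed the adjusted p without reaching 2-fold. The median was -0.57. BCL2, the founding inhibitor of cell death, read 9.70 and 9.79 in BC3 and 6.18 and 6.37 in BCBL1 on its brightest probe, at least 10.03-fold higher in BC3. Its other kept probes differed by 0.22, -2.64 and -0.24, so that its probes disagreed. MCL1 passed the adjusted p without reaching 2-fold (-0.85 ± 0.12), but its other probe did not pass it (-0.28, limma adjusted p = 0.15). BCL2L1 did not pass it (-0.35 ± 0.14, limma adjusted p = 0.0555), while its other probe did (-0.43, limma adjusted p = 0.033). PMAIP1 and BCL2L2 differed by -1.09 and -1.04, close to the 2-fold threshold, and the other kept probe of PMAIP1 differed by -0.60, which was not called. BIK was not above background in BCBL1, and its bound of at least 1.64-fold is under 2-fold. The calls of PMAIP1, BCL2L2 and BIK were lost without BCBL1 array a, that of BCL2L2 also without BC3 array a (-0.83) and that of PMAIP1 without BC3 array b (-0.98). Death receptors and inhibitors of apoptosis gave 1 higher and 1 lower of 16 (6.25% each), near the shares over all genes, 4.49% and 5.48%.

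Cancer-testis antigens are genes normally silent outside the germ line, many of them in clusters on the X chromosome. Of 29 tested, 10 were lower in BCBL1 (34.5%, against 5.48% of all genes) and none was higher by limma's call. Higher values had an unadjusted p under 0.05 in 5, of which 4 passed the adjusted p without reaching 2-fold. The median was -0.45, or -0.33 with bounds. SSX2 read 10.78 and 10.95 in BC3 and 6.12 and 6.24 in BCBL1, at least 21.8-fold higher in BC3 (limma adjusted p = 3.57e-11), and its 4 other kept probes differed by -2.03 to -3.30. MAGEC1 read 10.95 and 10.99 against 6.45 and 6.68 (-4.41 ± 0.12). GAGE4 was at least 23.4-fold and PAGE2 at least 15.7-fold higher in BC3. GAGE, SSX and PAGE genes are near-identical copies, so that the values of single copies are uncertain. MAGEC2 had kept probes of opposite call, at -1.63 and 1.70, and was singled out after its values were seen.

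Markers of other cell types were read on the same arrays. Among 22 tested T and NK cell genes 7 were lower (31.8%) and 2 higher (9.09%) in BCBL1, against 5.48% and 4.49% of all genes. CD4, the coreceptor of helper T cells, read 10.23 and 10.36 in BC3 and 6.35 and 6.22 in BCBL1, at least 14.7-fold higher in BC3. TRAT1, an adaptor of the T-cell receptor, was at least 11.4-fold higher in BC3, and RUNX3, a factor of cytotoxic T cells, differed by -3.11 ± 0.13. GZMA, a granule protease, was higher in BCBL1, with 11.23 and 11.43 against 13.32 and 13.50 (2.08 ± 0.12), and the adaptor LAT differed by 1.87 ± 0.12, with other probes at 1.03 and 0.30, the second not called. The summed linear intensity of the 22 genes was 19641 to 20383 in BC3 and 27869 to 28027 in BCBL1. Bright genes such as GZMA weigh heavily in this sum, and the median log2 difference of the list was -0.11. The T-cell genes CD3D, CD247, CD5, CD8A and CD8B and the NK genes NKG7, GNLY and NCAM1 were not above background in either line. They were among 14 such genes of the 38 listed.

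For the 13 myeloid genes tested the sum was 8341 to 8474 in BC3 and 5167 to 5281 in BCBL1. Lower were 2 (15.4%, against 5.48% of all genes), CEBPD (-2.46 ± 0.12) and CEBPA (-2.35 ± 0.12), both transcription factors best known from myeloid differentiation. By limma's call none was higher, while 2 higher values passed the adjusted p without reaching 2-fold. LYZ, CSF1R and TYROBP were among the 13 of 27 listed myeloid genes not above background. For 16 epithelial, stromal and endothelial genes the sums were 31047 to 31409 and 15095 to 15637. Of the 16, 3 were lower (18.8%) and 1 higher (6.25%), against 5.48% and 4.49% of all genes. Bright genes weigh heavily in these linear sums too. The median log2 difference was -0.08 for the myeloid list and -2.0e-04 (0.02 with bounds) for the other. EPCAM, the epithelial cadherin CDH1 (at least 3.07-fold higher in BC3) and CDH2 (-1.22 ± 0.11) were lower in BCBL1 and MUC1 higher. KRT7, KRT19, COL1A1, VWF and CDH5 were among the 15 of 31 listed genes not above background. KRT8, KRT18, COL1A2, COL3A1, VIM and PECAM1 were among the 12 tested genes that were not called.

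Adhesion genes changed in both directions. Of 25 tested integrins, selectins and migration genes, 4 were higher and 4 lower (16% each), against 4.49% and 5.48% of all genes. Their median was 0.16, or 0.07 with bounds. ITGB7, the integrin chain of gut homing, read 11.55 and 11.58 in BC3 and 6.87 and 6.98 in BCBL1 (-4.64 ± 0.12, limma adjusted p = 1.47e-11). CD81, a tetraspanin of the B-cell coreceptor, read 12.34 and 12.50 against 8.79 and 8.47 (-3.79 ± 0.13). THBS1, an extracellular matrix glycoprotein, was higher in BCBL1, at 11.14 and 11.12 against 13.04 and 13.07 (1.93 ± 0.11). SPARC differed by 2.24 ± 0.15, with 1 of the 2 BC3 arrays above background. Costimulatory and adhesion ligands gave 2 higher (13.3%) and 3 lower (20%) of 15, with LGALS9, a galectin with close copies in the genome, at 2.93 ± 0.14. CD47, a ligand that restrains phagocytosis, differed by 1.39 ± 0.16, but by 0.48 on its other probe, and its call was lost in the mean of its probes (0.93).

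Genes of metabolism and stress also split by direction. Glycolysis and hypoxia genes gave 3 higher and 3 lower of 30 (10% each), against 4.49% and 5.48% of all genes tested. The glucose transporters went opposite ways: SLC2A3 read 6.44 and 6.02 in BC3 and 9.95 and 9.97 in BCBL1 (3.73 ± 0.14, limma adjusted p = 1.82e-10), whereas SLC2A1 read 9.26 and 8.92 against 7.73 and 7.57 (-1.44 ± 0.15). SLC2A3 was above background on 1 of the 2 BC3 arrays, so its difference is not exact. BNIP3, a mitophagy receptor induced by hypoxia, differed by -4.61 ± 0.14. In the unfolded protein and amino acid stress list 3 of 26 were higher (11.5%) and 2 lower (7.69%). The serine synthesis enzymes PHGDH (1.98 ± 0.13) and PSAT1 (at least 3.90-fold) and the amino acid transporter SLC7A5 (1.67 ± 0.11) were higher in BCBL1.

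Lipid and oxidant genes followed no common direction. Cholesterol and fatty acid synthesis gave 1 higher (4.17%) and 4 lower (16.7%) of 24, against 4.49% and 5.48% of all genes. FADS1, a fatty acid desaturase, was at least 9.90-fold higher in BC3, and ELOVL6, an elongase, differed by 2.14 ± 0.12. Metallothioneins and oxidant defence gave 3 higher (10.7%) and 6 lower (21.4%) of 28. GSTP1 was lowest and GSTM2 highest (2.03 ± 0.14, and 0.59 on its other probe, which was not called). GPX4, the peroxidase that guards against ferroptosis, read 14.30 and 14.25 in BC3 and 12.47 and 12.65 in BCBL1 (-1.71 ± 0.12), and its other probe differed by -2.30. S100, annexin and galectin genes gave 4 higher (16.7%) and 2 lower (8.33%) of 24, led by S100A10, a partner of annexin A2, at 3.03 ± 0.13.

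Of 21 Notch, Wnt and Hedgehog genes 2 were higher and 2 lower (9.52% each), against 4.49% and 5.48% of all genes tested. LEF1, a nuclear effector of Wnt signalling, read 8.51 and 8.43 in BC3 and 11.34 and 11.18 in BCBL1 (2.79 ± 0.12, limma adjusted p = 8.01e-10), and its other probe differed by 2.78. HOX and homeobox genes gave 3 higher (14.3%) and 1 lower (4.76%) of 21. HOXC4 differed by 2.24 ± 0.13 and HOXC6 by 1.95 ± 0.12 on its brightest probe and 0.26 on its other. DNA methylation and chromatin modifiers gave 2 and 2 of 35 (5.71% each), near the shares over all genes. CBX2, a Polycomb subunit, differed by 2.35 ± 0.15 on 1 probe and -0.10 on the other. Without either BCBL1 array the other probe stood for it (-0.24 without array a and 0.04 without array b). Sensing of DNA and RNA gave 1 higher (3.23%) and 4 lower (12.9%) of 31. PYCARD, the inflammasome adaptor, differed by 2.02 ± 0.15 (0.59 on its other probe, not called) and the DNA sensor CGAS by -1.28 ± 0.14. Of 10 tested genes whose copy number varies in the population, 2 were higher (20%) and 4 lower (40%), among them GSTT1 at -1.42 ± 0.13.

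**Figure D3:**
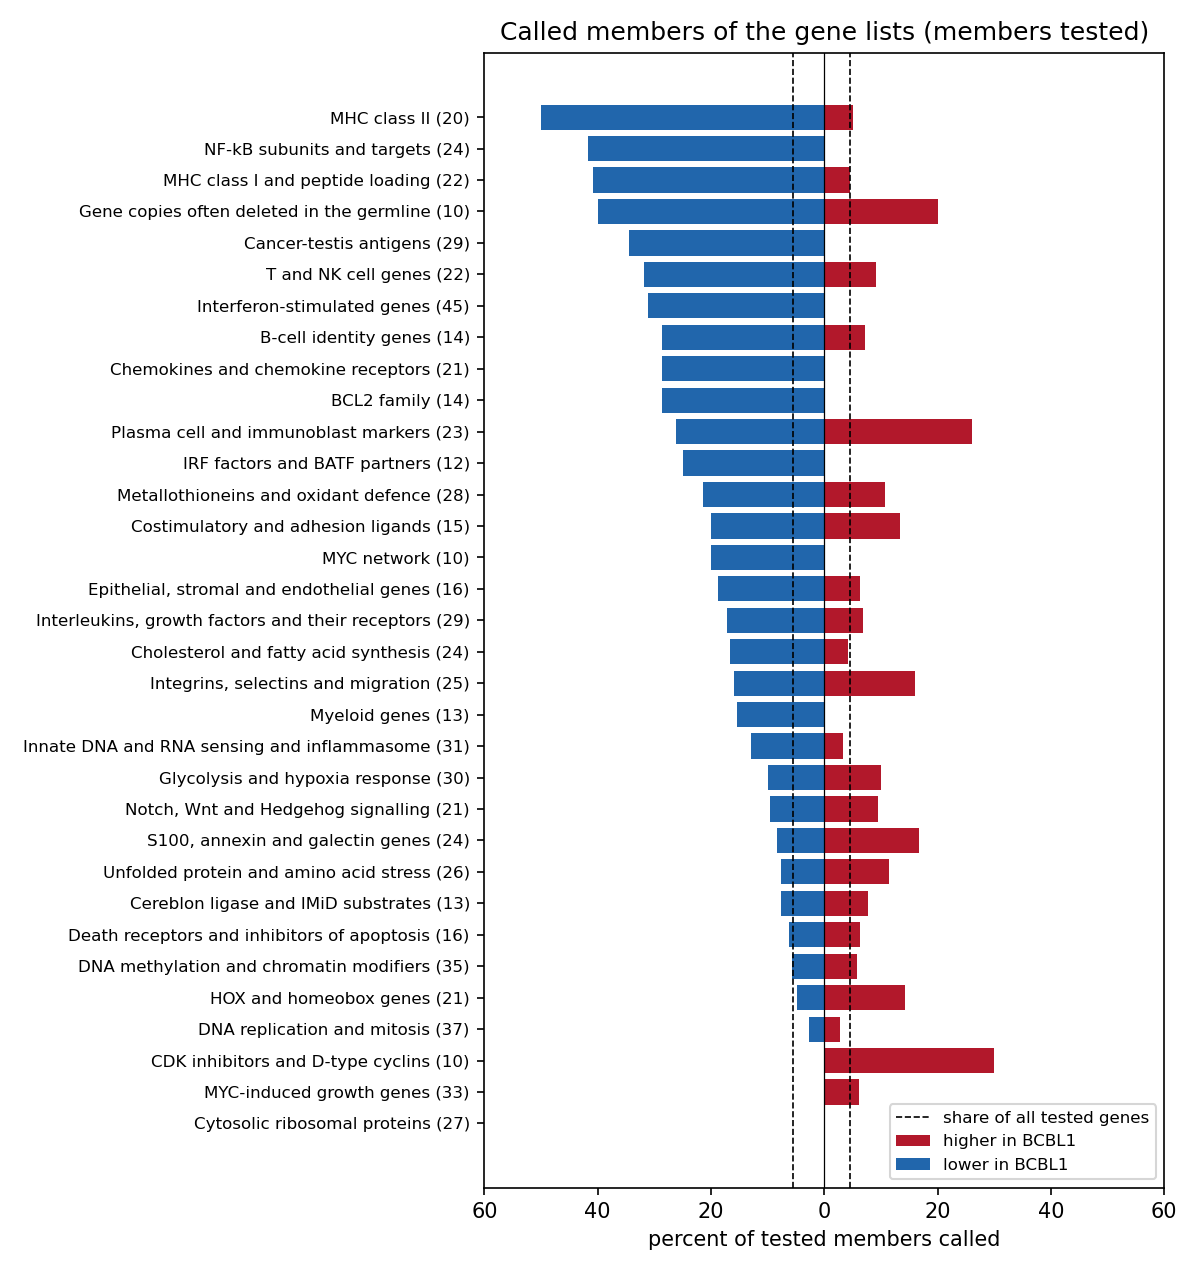
Percent of the tested members of each gene list described here with at least 10 tested members that were called higher in BCBL1 (right, red) or lower (left, blue); dashed lines give the shares over all genes tested, 4.49% and 5.48%. MHC class II genes have the highest share lower in BCBL1, 10 of 20, and no cytosolic ribosomal protein gene was called.

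Presence or absence was described apart from the fold. A gene was taken as detected in a line only where both its arrays were above background and neither array of the other line was. By that rule 548 genes were detected in BC3 alone, of which 172 were called, and 397 in BCBL1 alone, of which 82 were called. Most of these genes lay close to background: the bound reached 2-fold for 130 and 64 of them. With 1 array of a line left out, so that a single array decides there, the numbers rose to 828 to 1094 and 641 to 949. Beside the genes above, BC3 alone gave IL17RB, the receptor of interleukin 25 (at least 26.3-fold), CHDH, a choline dehydrogenase (at least 16.5-fold), and FMR1NB, a further cancer-testis gene (at least 24.7-fold).

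BCBL1 alone gave genes of matrix, signalling and innate immunity. GAS6, the ligand of the TAM receptor kinases, read 6.37 and 6.23 in BC3 and 9.72 and 9.70 in BCBL1, at least 9.87-fold higher, and its other kept probes differed by 1.34 and 3.34. SULF1, an extracellular heparan sulfatase, was at least 9.37-fold higher, and ETV5, an ETS factor downstream of MAP kinase signalling, at least 8.21-fold. NLRP2, of the NLR family, was at least 7.79-fold and SPR, the sepiapterin reductase of tetrahydrobiopterin synthesis, at least 6.26-fold higher in BCBL1.

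Where the lines were alike was read from intervals. Of 9855 genes above background on all 4 DMSO arrays, 3738 had a 95% interval of the log2 difference within -0.5 to 0.5, or 37.9%; without BC3 array a the number was 2396. Cytosolic ribosomal protein genes are an example of a list with little difference: of 27 tested limma called none. At an unadjusted p under 0.05, 1 was higher and 3 were lower, and 1 and 2 of these passed the adjusted p without reaching 2-fold. The log2 differences ran from -0.39 to 0.43 with a median of 0.02. RPL3 had an interval from -0.41 to 0.23 and RPS6 one from -0.19 to 0.33; both were singled out after their values were seen.

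The position of the genes was then considered, from the chromosome and order in the RefSeq gene table. On chromosome 14, 14.5% of 394 tested genes were lower in BCBL1 against 5.48% of all genes, and the median log2 difference there was -0.17. On chromosome 13, 13.8% of 218 genes were higher against 4.49%, with a median of 0.14. Chromosome 15 had 9.37% of 395 genes higher and a median of 0.26, the highest of any chromosome. Chromosomes 18 and X had 10.4% and 10.1% of their genes lower. Those on X include runs of 6, 5 and 3 neighbouring GAGE, PAGE or SSX genes. Near-identical copies among them may share signal, so that the X share may count 1 signal several times. RB1 lies on chromosome 13 and BCL2 on chromosome 18.

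**Figure D4:**
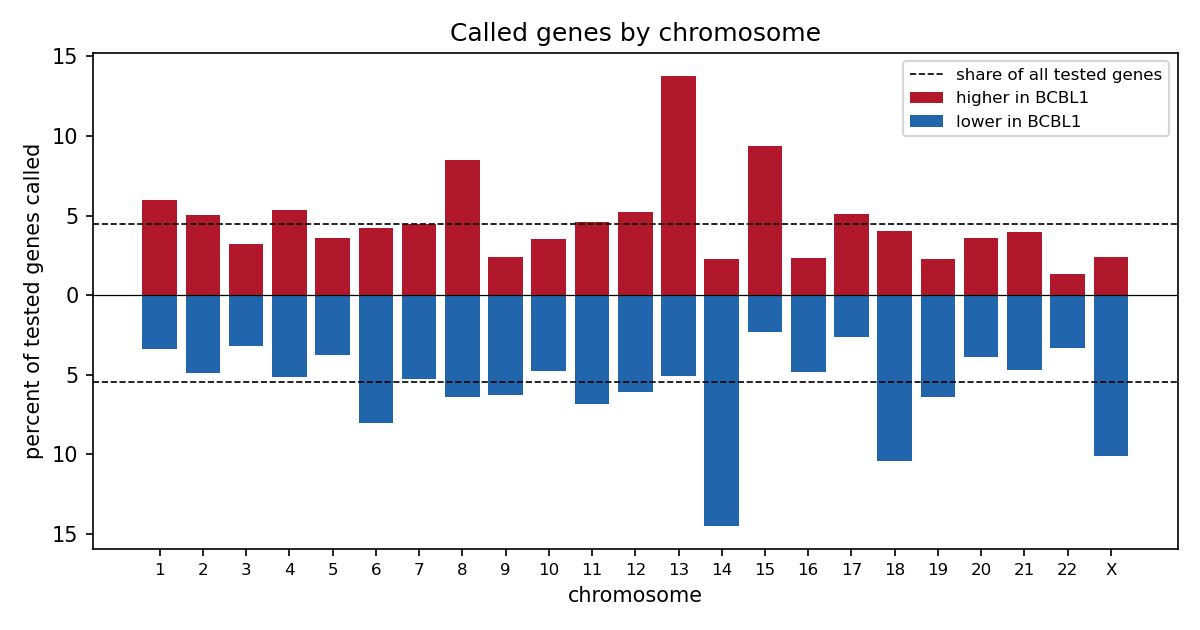
Percent of the tested genes of each chromosome called higher (upward, red) or lower (downward, blue) in BCBL1, with dashed lines at the shares over all genes, 4.49% and 5.48%; the Y chromosome is left out. Chromosome 13 stands out upward at 13.8% and chromosome 14 downward at 14.5%.

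Runs of at least 3 neighbouring tested genes called in 1 direction numbered 14, with 53 genes, 3 of them higher and 11 lower in BCBL1. The longest on chromosome 14 held RPPH1, PARP2, OSGEP, APEX1, PIP4P1 and PNP, with log2 differences between -1.88 and -1.15. RPPH1 is the RNA of ribonuclease P, and APEX1 and PARP2 act in DNA repair. APEX1, the abasic site endonuclease, read 12.80 and 12.91 in BC3 and 11.63 and 11.40 in BCBL1 (-1.34 ± 0.13, limma adjusted p = 3.40e-06), and its other probe differed by -1.35. PARP2 lost its call on leaving out BC3 array b (-0.98) and in the mean of its probes (-0.85), and its other kept probe differed by -0.56, which was not called.

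A second run on chromosome 14 joined the proteasome activators to the interferon genes. PSME1 and PSME2, which encode the activator that opens the proteasome for antigen processing, differed by -1.54 ± 0.13 and -1.28 ± 0.15. Between and beside them lay EMC9 (-1.30 ± 0.12), RNF31, the catalytic part of the linear ubiquitin ligase upstream of NF-κB (-1.64 ± 0.12), and IRF9 (-2.48 ± 0.14). The other kept probe of PSME1 differed by -0.10 and the mean of its probes by -0.82, under 2-fold. On the X chromosome GAGE12E, GAGE12F, GAGE12G, GAGE12H, GAGE2A and PAGE1 formed a run, in which near-identical copies may share signal. GAGE12G was at least 21.9-fold, GAGE12H at least 13.4-fold, PAGE1 at least 9.13-fold and GAGE2A at least 5.84-fold higher in BC3, and GAGE12F and GAGE12E differed by -3.99 and -1.09. GAGE12F was above background on 1 of the 2 BCBL1 arrays. GAGE12E lost its call on leaving out BC3 array b, at -0.98. A further run of 5 genes, as long as that of PSME1, held SSX5, SSX1, SSX3, SSX4 and SSX4B on the X chromosome, again near-identical copies. SSX1, SSX3 and SSX4B differed by -3.01, -2.78 and -3.22, and SSX5 and SSX4 were at least 5.87-fold and 3.04-fold higher in BC3.

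The same comparison was made between the 4 lenalidomide arrays, whose means share no array with the DMSO means. The 2 comparisons were not separate tests. Both came from a single model over all arrays, so a gene has the same standard error in both. Normalization, filter and choice of probe also used all arrays. There limma called 1349 genes, or 10.6%. Of the 1268 genes called under DMSO, 1044 were called in the same direction under lenalidomide, which is 82.3% of the DMSO calls and 77.4% of the lenalidomide calls. The sign was the same for 1267 and opposite for 1, and no gene was called in opposite directions. GNAS differed by 6.22 ± 0.13 and BHLHE22 by -6.90 ± 0.13 in the lenalidomide arrays, against 6.28 and -6.54 with DMSO. CD74 differed by -4.88 ± 0.17, against -5.58.

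The change of the line difference with treatment was tested as an interaction. It passed an adjusted p of 0.05 for 63 of the 12719 genes, or 0.495%, and 0.346% also moved at least 2-fold; 28 of the 63 were among the genes called under DMSO. With fewer arrays the number fell to 25 without BC3 array a and to 34 without BC3 array b or BCBL1 array a. MUC1 had the largest change among the genes named here: the line difference was 3.41 ± 0.14 under DMSO and 1.27 ± 0.14 under lenalidomide (interaction -2.14 ± 0.20, limma adjusted p = 2.12e-04). FZD2 had a mean of 10.69 with DMSO and 12.30 with lenalidomide in BCBL1, against 6.04 and 6.05 in BC3, where it was not above background with DMSO, so that no exact line difference is given. Both genes stayed higher in BCBL1 under both treatments.

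**Figure D5:**
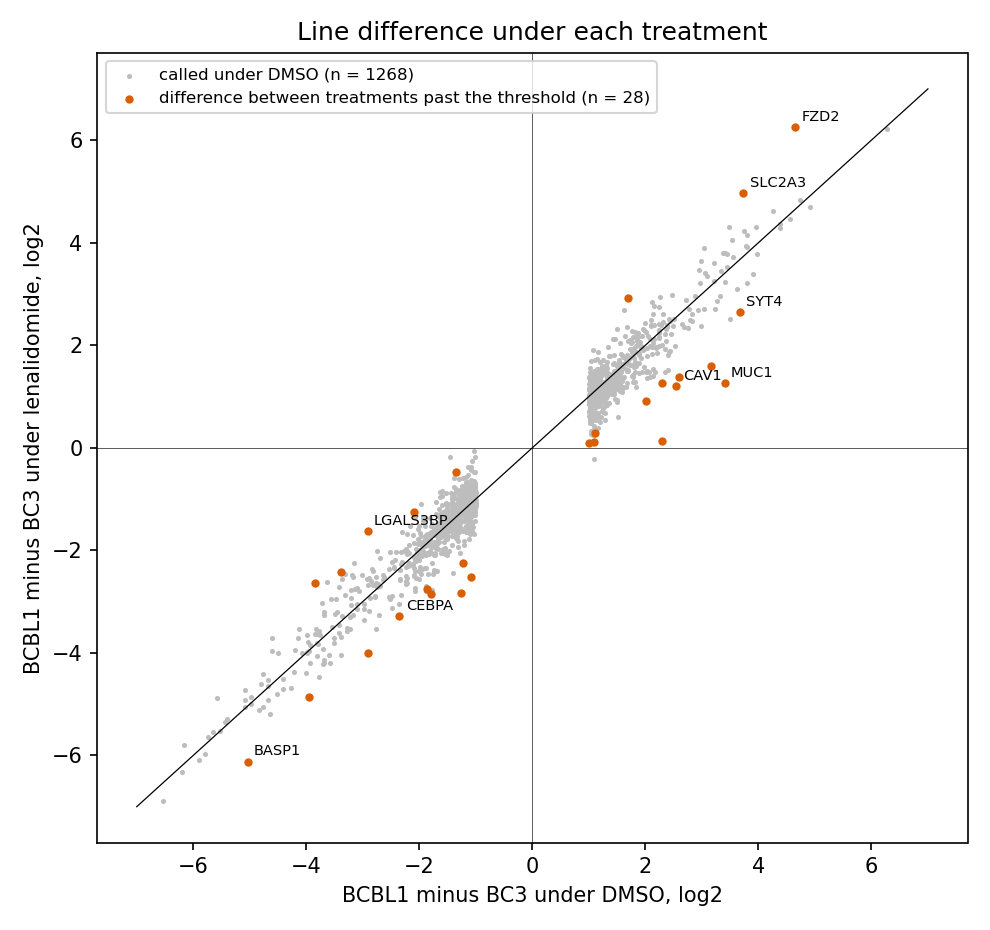
Log2 difference of BCBL1 minus BC3 under DMSO (horizontal axis) and under lenalidomide (vertical axis) for the 1268 genes called under DMSO; the diagonal marks equal differences. Orange points are the 28 genes whose difference changed with treatment past the threshold, with those named in the text labelled; of all points, 1 lies across the zero line from its DMSO value.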

How the data were processed

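Total RNA of the lines BC3 and BCBL1 was labelled with Cy3 and hybridised to 1-colour Illumina bead arrays, per the labels. The deposited main table holds probe intensity values on a linear scale, not normalized between arrays as judged from the values, for 47323 probes and 8 arrays. A second deposited table holds log2 values of the same arrays, which the authors made with limma per the submitters' processing notes; the offset used there is not stated. Its columns had a rank correlation of 1 with single intensity columns, which tied array a to replicate 1 and array b to replicate 2. No per-sample column was left unused (0), and no build of the array's annotation is named.

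Intensities were corrected with normexp (offset 50), quantile-normalized and taken to log2 (R 4.3.3, limma 3.58.1). The offset compresses differences of dim genes. The files used hold no detection p, so background was rebuilt per array from the mode of its signals and the spread below that mode, at p of 0.05. This took the place of the planned detection p. Of 47322 probes analysed (1 was left out at 0), 24097 passed in both arrays of some group and were kept. Symbols came from the platform annotation: 30113 probes had 1 symbol, 8 several and 17201 none, and 30074 of those with 1 symbol matched the RefSeq gene table by gene identifier. The brightest kept probe stood for a gene, and a disagreeing probe is named beside it. Without detection in the dimmer line, a lower bound of the fold is printed, taken against the array's faintest detected signal or the probe's own, whichever was higher.

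The limma model fitted group means over all 8 arrays (4 residual and 8.76 prior degrees of freedom) and gave the line difference under each treatment and their interaction, with Benjamini-Hochberg adjustment over all genes. On simulated data for this comparison with 12719 genes, it recovered 200 of 200 changed genes with 0 false calls. The simulated size of change and noise are not given here, so this says nothing of power on these arrays or of the spread between cultures. Replicate numbers were checked for pairing across groups: deviations of arrays with the same number correlated between -0.08 and 0.05, so they were not treated as pairs.

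The 35 gene lists, the comparison and the rules were chosen with earlier results of these data known. The genes named are 25 fixed genes, the 25 largest called differences in each direction, the 15 largest bounds in each direction among genes detected in 1 line, up to 4 called genes per list and direction, and the genes of the longest runs, with a tie for the third place. Y-linked genes, XIST and genes without a usual symbol are not named, and some items are not reported here. Alternatives were the offset, background correction, normalization, the deposited log2 values, the filter, the choice of probe, the arrays fitted, averaged arrays, a replicate block and leaving out each array.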

Additional observations from a re-analysis of the deposited data

Results flagged for a closer look

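For 8 of the genes named, the line difference changed between DMSO and lenalidomide by the interaction test in limma, given as lenalidomide minus DMSO with its standard error. 5 of these genes were higher in BCBL1. MUC1, the membrane mucin, had an interaction of -2.14 ± 0.20 (adjusted p = 2.12e-04), with a line difference of 3.41 under DMSO and 1.27 under lenalidomide. CAV1, the coat protein of caveolae, changed by -1.34 ± 0.16 (adjusted p = 0.00203), from 2.55 to 1.21. SYT4, a synaptotagmin of secretory vesicles, changed by -1.03 ± 0.16 (adjusted p = 0.0121), from 3.67 to 2.64. FZD2, the Wnt receptor, changed by 1.60 ± 0.18 (adjusted p = 0.00132), and SLC2A3, the glucose transporter, by 1.24 ± 0.20 (adjusted p = 0.0118), both with a higher fitted line difference under lenalidomide. FZD2 was not above background in BC3 under DMSO, so its value is no exact difference: its BCBL1 mean was 10.69 with DMSO and 12.30 with lenalidomide. SLC2A3 was above background on 1 of the 2 BC3 arrays under DMSO, so its value is not exact either.

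The other 3 were lower in BCBL1. LGALS3BP, a secreted galectin-binding glycoprotein, changed by 1.29 ± 0.19 (adjusted p = 0.0071), from -2.92 to -1.63. BASP1 changed by -1.09 ± 0.21 (adjusted p = 0.0452), from -5.03 to -6.12. It was above background on 1 of the 2 BCBL1 arrays under DMSO, so these values are not exact. CEBPA, a myeloid transcription factor, changed by -0.93 ± 0.18 (adjusted p = 0.0386), from -2.35 to -3.28. All 8 kept the sign of their line difference under both treatments.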

How the results depend on the processing

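The count of called genes moved most with the fold threshold. The deposited log2 values gave 1997 called genes (918 higher, 1079 lower) against 1268, and the adjusted p with no fold threshold gave 5220 (2582 and 2638). With no background correction 375 were higher, and with the filter on all 4 DMSO arrays 453 were lower. The interaction count of 63 became 21 with an offset of 16, 30 with the deposited values, 31 with the filter on all 4 DMSO arrays and 25 to 46 with 1 array left out. Genes alike in both lines, 3738, became 2304 with an offset of 16, 1771 with the deposited values and 2396 to 2725 with 1 array left out. Genes detected in 1 line became 828 to 1094 for BC3 and 641 to 949 for BCBL1 with 1 array left out, where a single array decides.

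In the deposited table the replicate block gave 1992 called genes (916 higher, 1076 lower), 9 interactions and 1581 genes alike. The numbers did not pair the arrays, so this says nothing of the strength of the effects. Arrays averaged per group, with the lines compared over both treatments, gave 1267 called genes, 1132 of them shared with the main 1268, but no interaction. A stricter detection p of 0.01, chosen after seeing the data, gave 573 and 389 genes detected in 1 line. Of 195 called genes that are named, 151 kept their call under every alternative run. CBX2 reversed to -0.12 with an offset of 16, to -0.14 with the deposited values and with the replicate block, and to -0.24 without BCBL1 array a (up to 2.47 with another array left out), since another probe then stood for it.

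Limits: 2 technical arrays per line limit the precision, and 1 culture per line cannot separate the line from its culture. Signal over background limits dim genes, whose differences are compressed. The labels and files used give no slide or scan, and their part was not tested.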

Other observations

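Probes without a single gene symbol were set apart from the genes. Of 6741 such probes above background, limma called 298 between the lines under DMSO, or 4.42%, of which 135 were higher and 163 lower in BCBL1.

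The share of CG dinucleotides in promoters was counted for genes grouped by their line difference. The median number of CG in the 300 bases was 25 over the 10104 tested genes with a promoter, with quartiles of 16 and 34. It was 17 in the 83 genes at least 8-fold lower in BCBL1 and 20 in the 25 genes at least 8-fold higher. Genes detected in BC3 alone had a median of 20 (410 genes) and those detected in BCBL1 alone one of 16 (281 genes). These are descriptions over genes with no test, and expression level, which differs between these groups, was not matched.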
